A study of Mus musculus with 9 samples.

Results

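The comparison of 3xTG with wild-type (WT) mice at 3 months of age asks which hippocampal transcripts differ between the genotypes in young adults. It rests on 3 of the 9 arrays of the series, those whose titles set 3xTG against WT at 3 months. Of 29922 probes in the table, the 13469 listed on at least 2 of these 3 arrays were described. They comprised 3607 probes listed on all 3 arrays and 9862 listed on 2. A further 11520 probes were listed on a single one of these arrays and 4933 on none, and they are not described. A single gene symbol was given for 9696 of the 13469 probes, which covered 8698 of the 16637 genes in the table. No value in another comparison was required, and 9773 of the 13469 probes were listed on fewer than 2 arrays of at least 1 other comparison.

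All animals of this comparison were female and 3 months old, and RNA came from a single hippocampus of each. The 3xTG mice are of a B6;129 background and carry the transgenes APPSwe and tauP201L as the labels name them, that is, the Swedish form of amyloid precursor protein and a mutant tau. The WT mice are labelled 129SV with C57BL6. Their relation to the transgenic line is not given in the sources used here, so strain background and transgenes cannot be told apart. Each array set RNA of a 3xTG mouse against RNA of a WT mouse in the other dye, after linear amplification. Array 1 held 3xTG mouse 23 in Cy3 and WT mouse 15 in Cy5, array 2 held 3xTG mouse 22 in Cy3 and WT mouse 15 in Cy5, and array 3 held 3xTG mouse 22 in Cy5 and WT mouse 16 in Cy3. There were thus 2 mice per genotype, and arrays 1 and 3 shared neither a mouse nor a dye orientation.

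As background, the 3xTG line develops amyloid deposits and tau inclusions in the hippocampus with age, and at young adult age it is commonly studied for changes that come before plaques. The amyloid precursor protein is cut into amyloid peptides, and tau is a microtubule-binding protein whose phosphorylation is set by kinases and phosphatases. The hippocampus holds granule cells of the dentate gyrus and pyramidal cells of CA1 to CA3, with interneurons and glia. In RNA of a whole hippocampus, fewer cells of a type and less RNA per cell cannot be told apart.

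The values are log2 ratios of 3xTG over WT, and no deposited value lay between -0.5 and 0.5, so the smallest ratios were missing. Arrays 1, 2 and 3 listed 13683, 14533 and 13849 probes, with medians of 0.84, -0.84 and 0.97. Values below are relative to the median of the array. On that scale the unlisted band ran from -1.34 to -0.34 on array 1, from 0.33 to 1.34 on array 2 and from -1.47 to -0.46 on array 3, so a value near 0 can have a deposited ratio of either sign. Centring raised the values of array 2 and lowered those of arrays 1 and 3, so the order of the arrays for a gene or list can depend on it. Transcripts of abundant complexes (respiratory chain, glycolysis, ribosome and proteasome) had medians of -0.13, 1.61 and 0.80 on arrays 1 to 3. Chemosensory receptor families of nose and tongue, together with keratin-associated proteins of hair, none known as hippocampal transcripts, had medians of -1.37, -0.29 and -0.31. The difference between these sets ran from 1.11 to 1.89, with the abundant transcripts higher on each array. The part this difference has in the gene groups below was not tested. Ratios carry no level, so the tissue could not be checked by marker levels. All 7 neuronal markers with a probe (among them Snap25, Syt1 and Nefl) were listed on at least 2 arrays, 5 above and 2 below 0, with a median of 2.25.

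The transgenes were examined first. An App probe was at 2.08 on array 1, 3.55 on array 2 and 2.80 on array 3, with a fitted log2 ratio of 2.66 ± 1.34 (SE, 3 arrays, limma adjusted p = 0.897). A second App probe was listed on arrays 2 and 3, at 4.44 and 4.49. App thus lay above the array median on each array that listed it, in the direction of the label, and this stayed so without centring (2.92, 2.71 and 3.76 for the first probe). Thy1, whose promoter drives the transgenes of this line, was at 0.24, 1.52 and 1.16. Mapt, the gene of tau, was listed on array 1 only, at -0.16 relative to the median and 0.68 without centring, so its sign depends on the centring. The App and Mapt probes are annotated to the mouse genes, and whether they bind the human transcripts was not tested.

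Agreement between arrays was set out for each pair. Arrays 1 and 2, which share WT mouse 15 and the dye orientation, had values on the same side of their medians for 65% of 7020 probes. For arrays 2 and 3, which share 3xTG mouse 22 with opposite dyes, this was 63.2% of 6988 probes. Arrays 1 and 3 have no mouse in common and opposite dyes, and 61.1% of 6675 probes lay on the same side. The shares above and below the median on each array would give about 50%, 50.1% and 50.2% if the arrays were unrelated. Among probes over 2 log2 units from the median on both arrays the shares were 68.3% of 1048, 69.8% of 1304 and 74.4% of 1142 in the same order. Across probes, which are not independent replicates, Pearson's r was 0.314 for arrays 1 and 2, 0.308 for arrays 2 and 3 and 0.249 for arrays 1 and 3, with Spearman's rank correlations of 0.331, 0.329 and 0.270. The pair without a shared mouse was the lowest over all probes and the highest among large ratios. In the order of arrays 1 and 2, 2 and 3, and 1 and 3, the shares without centring were 65.1%, 60.2% and 64.1%, and relative to the abundant transcripts 64.5%, 68.5% and 59.8%. Unrelated arrays would give 48.8%, 48.4% and 53.6% for uncentred values. For values set against the abundant transcripts this was 49.3%, 54.3% and 48.2%. The excess over these values was largest for arrays 1 and 2 and smallest for arrays 1 and 3 under each of the 3 centrings.

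Of the 3607 probes listed on all 3 arrays, 1867 lay on a single side of the median on each, 1115 of them above (30.9%) and 752 below (20.8%). The shares on the single arrays would give 25.5% on a single side if the arrays were independent, against 51.8% found. Arrays 1 and 2 share a WT mouse and arrays 2 and 3 a 3xTG mouse, so they are not independent, and 25.5% is not the share to be found without a genotype effect. Without centring 1862 had a single sign (1235 above and 627 below), and with centring on the abundant transcripts 1874 did (798 above and 1076 below), so the balance of the sides turned with the centring. Of the 9862 probes listed on 2 arrays, 2750 were above on both and 2967 below on both.

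No single probe passed. limma called 0 of 13469 probes (0%) at an adjusted p of 0.05, in a fit that allowed for the mice that arrays share. An unadjusted p under 0.05 was found for 667 probes (4.95%), 371 above 0 (2.75%) and 296 below (2.2%). In this fit the share past the threshold was close to the threshold itself, but it depended on how shared mice were allowed for. With a smaller variance between mice, estimated on gene means, there were 771 above and 606 below. With arrays taken as independent there were 967 and 782. Without centring the split was 547 above and 121 below, and with centring on the abundant transcripts 170 above and 772 below, which also moved the median of all probes from -0.10 to -0.88. Leaving out array 1 gave 196 above and 41 below among 6988 probes, leaving out array 2 gave 275 and 484 among 6675, and leaving out array 3 gave 146 and 65 among 7020, with 0 called in each. In simulated data with the same missing values and shared mice, the fit recovered 5% of 100 probes shifted by 4 log2 units. Of 100 probes shifted by 8 it recovered 66%. Most simulated shifts of 4 log2 units were thus not called, and 0 called does not show that no transcript differs. The simulated spread and the allowance for shared mice were those of the fit. Few probes were shifted, and values were missing regardless of their size, so recovery in the real data may differ. The 2 mice per genotype limit the precision. The genes below are described as the smallest p among probes of a single sign, all with a limma adjusted p = 0.897.

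Above the median, the 12 genes of smallest p with a single sign had varied roles. Ppp2r1a, the scaffold subunit of protein phosphatase PP2A, which removes phosphate from tau among other substrates, was at 5.12, 5.33 and 6.61 on arrays 1 to 3, with a fitted log2 ratio of 5.76 ± 1.33 (SE). Eef1e1, an accessory protein of the aminoacyl-tRNA synthetase complex, was at 3.67, 5.03 and 7.30 (fitted 5.39 ± 1.41, SE). Oxct1, the enzyme by which mitochondria use ketone bodies, was at 3.98, 4.49 and 5.90 (fitted 4.85 ± 1.34, SE). All values of these 3 genes lay on the 3xTG side, with the highest on array 3.

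Tank, an adaptor of TRAF proteins in NF-kappa-B and interferon signalling, was at 4.43, 6.44 and 4.23 (fitted 4.75 ± 1.39, SE). Spryd7 was at 5.30, 8.04 and 4.25 (fitted 5.42 ± 1.499, SE). In contrast to the genes before, these had their highest value on array 2. Plppr4, a phospholipid phosphatase-related protein of excitatory synapses, was at 5.19, 6.70 and 4.62. Nrn1, the neurite outgrowth factor neuritin, was at 4.4, 5.26 and 5.55. Pkia, which blocks the catalytic subunit of protein kinase A, was at 4.10, 4.12 and 6.86. Each of these lay at least 4.10 above the median on all 3 arrays.

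Pdha1, the E1 alpha subunit of pyruvate dehydrogenase, was at 3.92, 5.10 and 6.47. Klhl7, a substrate adaptor of a cullin ubiquitin ligase, was at 3.96, 4.63 and 5.17, and B2m, the invariant chain shared by MHC class I molecules, was at 3.68, 4.51 and 5.497. On the centred scale the order of the arrays was the same for these 3 genes, with array 1 lowest and array 3 highest. Without centring array 2 was the lowest for each. Rida, a deaminase that clears reactive enamines, was at 4.09, 4.89 and 4.73. The 12 fitted values ran from 4.51 to 5.76 (median 5.10). They ran from 5.07 to 6.32 without centring and from 3.92 to 5.17 with centring on the abundant transcripts.

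Below the median, the 12 genes of smallest p with a single sign had varied roles as well. Brd2, a reader of acetylated histones, was at -4.82, -3.10 and -3.83 (fitted -4.08 ± 1.34, SE). H2ax, the histone variant that is phosphorylated at DNA breaks, was at -4.23, -2.10 and -5.19 (fitted -4.19 ± 1.44, SE). Kdm2a, a histone lysine demethylase, was at -5.29, -0.95 and -5.08 (fitted -4.34 ± 1.60, SE). For each of these 3 genes array 2 was nearest to 0 on the centred scale.

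Nrgn, neurogranin, a calmodulin-binding protein of dendritic spines, was at -4.18, -2.80 and -3.29 (fitted -3.55 ± 1.33, SE). Map2, the microtubule-associated protein of dendrites, was at -7.52, -2.97 and -1.54, so its fitted value of -4.22 ± 1.59 (SE) rests mostly on array 1. Pou3f1, a POU-domain transcription factor of CA1 pyramidal cells, was at -3.86, -2.65 and -4.44. Cers1, the ceramide synthase of neurons, was at -4.93, -2.07 and -4.47.

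Malsu1, an assembly factor of the mitochondrial ribosome, was at -6.25, -2.37 and -2.84, and Tmcc3, a membrane protein of the endoplasmic reticulum, was at -6.65, -1.37 and -3.13. Both were lowest on array 1. Emc10, a subunit of the complex that inserts proteins into the endoplasmic reticulum membrane, was at -3.08, -2.56 and -4.63. Klk10, a kallikrein-related peptidase, was at -3.93, -0.85 and -6.75, and Skil, a repressor of TGF-beta signalling, was at -1.90, -3.43 and -5.72. The last 3 genes were lowest on array 3. The fitted values of the 12 genes lay between -4.45 and -3.55. Without centring they lay between -3.89 and -2.99, and relative to the abundant transcripts between -5.03 and -4.13.

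**Figure D1:**
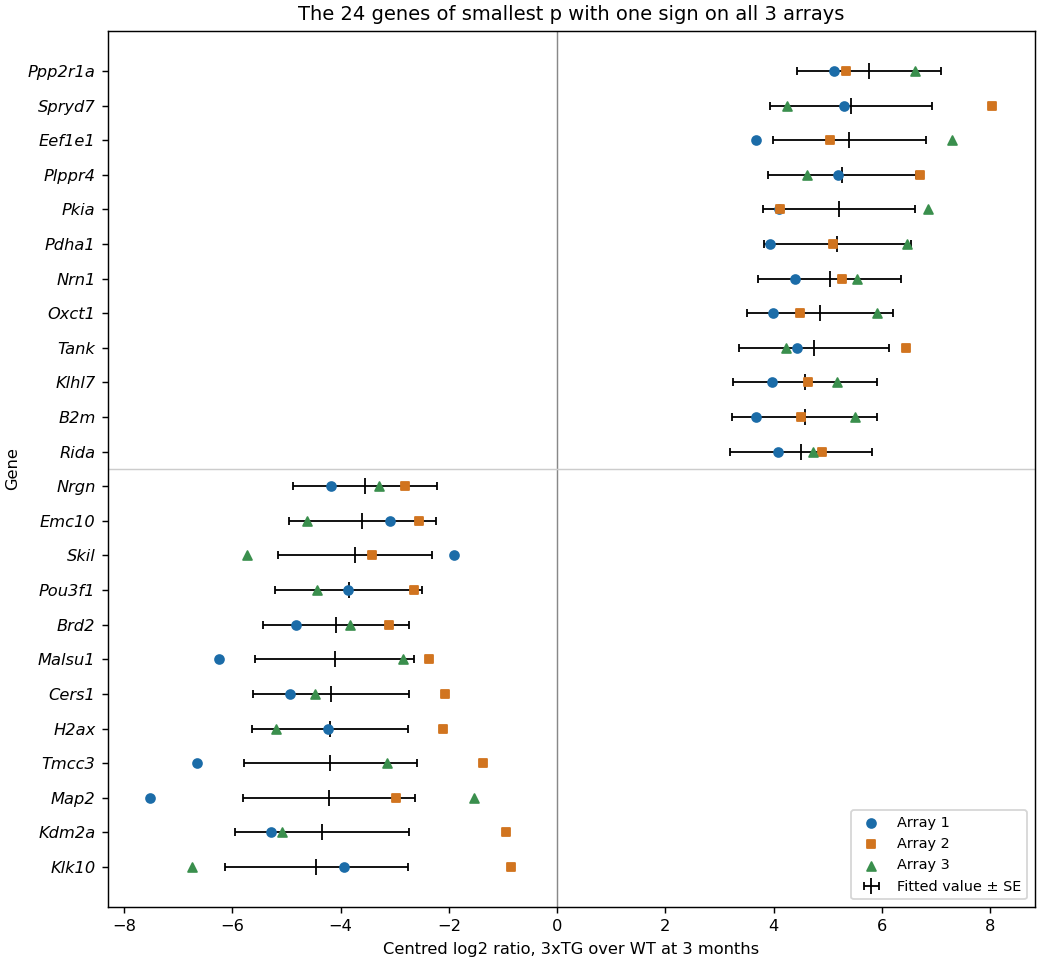
Centred log2 ratio of 3xTG over WT at 3 months (x axis) for the 24 genes of smallest p with a single sign on all 3 arrays (y axis, ordered by fitted value). Points are the 3 arrays, and bars are the fitted value ± SE. The genes above 0 have fitted values of 4.51 to 5.76 and those below 0 of -4.45 to -3.55. Array 2 is nearest to 0 for 10 of those below 0, an order of arrays that can depend on the centring.

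The promoters of these 24 genes were read from RefSeq (GRCm38.p6) to show which common elements they share, and 16 genes matched, 9 above and 7 below the median. Of the 250 bases before the start, 4 examples are printed from 5′ to 3′ on the strand of the gene. Ppp2r1a had the smallest p above the median, B2m is the only one with a TATA motif, Emc10 the only one with a cyclic AMP response element, and Nrgn is a dendritic gene below the median. Capitals mark matches on either strand to the cyclic AMP response element (TGACGTCA), to the CCAAT box, to the GC box (GGGCGG) and to the TATA motif (TATAAA). The last pair of GC boxes of Ppp2r1a overlaps.
Ppp2r1a, chr17:20945204-20945453, plus strand: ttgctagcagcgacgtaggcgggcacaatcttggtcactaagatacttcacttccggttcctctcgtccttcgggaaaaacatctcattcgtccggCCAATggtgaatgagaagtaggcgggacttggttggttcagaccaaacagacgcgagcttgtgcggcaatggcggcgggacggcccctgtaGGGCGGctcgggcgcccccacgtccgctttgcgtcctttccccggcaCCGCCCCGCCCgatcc
B2m, chr2:122147437-122147686, plus strand: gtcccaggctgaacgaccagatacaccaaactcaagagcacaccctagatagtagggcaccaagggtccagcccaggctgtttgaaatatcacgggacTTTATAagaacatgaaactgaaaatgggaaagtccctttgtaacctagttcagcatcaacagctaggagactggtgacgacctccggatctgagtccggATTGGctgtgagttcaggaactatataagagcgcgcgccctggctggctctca
Emc10, chr7:44496419-44496668, minus strand: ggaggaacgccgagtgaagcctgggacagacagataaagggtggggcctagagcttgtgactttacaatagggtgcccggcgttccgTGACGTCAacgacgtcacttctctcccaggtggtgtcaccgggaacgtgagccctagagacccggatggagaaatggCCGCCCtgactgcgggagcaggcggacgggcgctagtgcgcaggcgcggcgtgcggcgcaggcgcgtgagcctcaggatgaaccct
Nrgn, chr9:37552746-37552995, minus strand: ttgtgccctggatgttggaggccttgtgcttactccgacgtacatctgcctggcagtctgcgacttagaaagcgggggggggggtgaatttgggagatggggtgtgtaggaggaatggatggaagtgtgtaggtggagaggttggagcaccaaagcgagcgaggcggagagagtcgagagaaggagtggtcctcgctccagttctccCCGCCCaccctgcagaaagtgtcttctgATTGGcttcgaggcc

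GC boxes were found in 5 of the 9 promoters of genes above the median and in 5 of the 7 below, against 32.9% of 27025 promoters of the same length. CCAAT was found in 3 of 9 (B2m, Eef1e1 and Ppp2r1a) and in 1 of 7 (Nrgn), against 34.5%. The cyclic AMP response element was found in 0 of 9 and in 1 of 7, against 1.62%, and TATAAA in 1 of 9 and in 0 of 7, against 13% of promoters. A match is a description of the letters in this window. The genes on either side of the median held the GC box in similar numbers.

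Of the 65 gene lists and 18 gene families, 83 had at least 5 genes tested. Over all 8698 genes 4269 lay above 0 (49.1%), 270 (3.1%) had an unadjusted p under 0.05 above 0 and 180 (2.07%) below, and the median was -0.04. limma called 0 genes of any list. The counts that follow are to be read against these shares.

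Neurite growth and plasticity genes lay above the median together. Of 35 genes tested, 26 were above 0, with a median of 1.67 and medians of 0.92, 2.18 and 1.77 on arrays 1 to 3. There were 8 genes with an unadjusted p under 0.05 above 0 and 1 below. Besides Plppr4 and Nrn1, Ntrk3, the receptor of neurotrophin-3, was at 7.64 on array 1 and 5.10 on array 2, and Gap43, a protein of growing axons, was at 7.72 on array 2 and 4.04 on array 3. Both had a value on 2 arrays only. Axon guidance genes, by comparison, were split, with 21 of 42 above 0 and a median of -0.03. Among these Epha7, an ephrin receptor, was at 6.67 and 5.41 on arrays 1 and 3, while Sema6c, a semaphorin, was at -2.53, -1.21 and -6.57, Robo2 at -4.398 and -2.29 on arrays 1 and 3, and Slit1, a ligand of Robo receptors, at -2.85, -1.12 and -4.79. Of this list 1 gene had an unadjusted p under 0.05 above 0 and 4 below.

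In the list of serine/threonine phosphatases and 14-3-3 proteins 27 of 36 genes lay above 0, with a median fitted value of 0.99 and 5 genes with an unadjusted p under 0.05, all above 0. Ppp2cb, a catalytic subunit of PP2A, was at 7.30 and 6.79 on arrays 1 and 2. Ywhah, the eta form of 14-3-3, was at 4.23, 6.16 and 3.94, and Ppm1a, a metal-dependent phosphatase, at 3.26, 3.11 and 3.58. Ppp2r1a and Ppp2cb thus both lay above the median on each array that listed them. They were picked as the genes of smallest p in the list, and other PP2A subunits are not described. Tau, its kinases and microtubule-associated proteins were split, with 13 of 24 above 0 and a median of 0.57, and with 4 genes with such a p above 0 and 2 below. Csnk2b, the regulatory subunit of casein kinase 2, was at 6.68 and 3.94 on arrays 1 and 3. That list shares Ppp2r1a and Ppp2cb with the phosphatases.

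Lists of protein turnover and membrane traffic differed in their medians. Autophagy genes had the highest median of the 83 lists, at 1.89, with 15 of 19 above 0 and medians of 0.92, 2.46 and 2.54 on arrays 1 to 3. Vmp1, a membrane protein needed for autophagosome formation, was at 4.91 and 6.33 on arrays 2 and 3. Sqstm1, the cargo receptor p62, was at 3.12 and 4.68 on arrays 1 and 2. Gabarap, an ATG8-type protein, was at 2.48, 2.68 and 3.58, a narrow range.

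Ubiquitin enzymes and deubiquitinases had 40 of 62 above 0 (median 1.03). The families of RING finger and tripartite motif proteins, which include many ubiquitin ligases, had 19 of 45 and 13 of 29 above 0, with medians of -0.43 and -0.47. Usp14, a deubiquitinase of the proteasome, was at 3.33, 5.85 and 5.04, while Ube3b, a ubiquitin ligase, was at -3.14, -2.06 and -3.46. Clathrin adaptors, coats and endosomal sorting proteins had 31 of 43 above 0 (median 1.04) and 4 genes with an unadjusted p under 0.05 above 0. Chmp2b, a subunit of the ESCRT-III complex, was at 5.11 and 4.85 on arrays 1 and 2, and Vps26a, of the retromer complex, at 1.72, 3.60 and 3.90.

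Rab GTPases had 27 of 36 above 0 (median 0.61), led by Rab10 at 2.63, 5.28 and 4.53. Lysosomal genes had 26 of 38 above 0 (median 0.50), yet their smallest p was that of Ctsz, cathepsin Z, at -2.35 and -4.31 on arrays 1 and 3. Proteasome subunits had 13 of 21 above 0, with a median of 0.30 and medians of -0.29, 1.45 and 0.89 on arrays 1 to 3. The median of the proteasome list minus that of all genes changed side when array 2 was left out or only probes of 3 arrays were used.

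Endoplasmic reticulum folding and translocation genes had 21 of 30 above 0 with a median of 1.42. Emc7 was at 2.64, 3.88 and 2.83, opposite to Emc10 of the same complex. Heat shock proteins and co-chaperones had 32 of 48 above 0 (median 0.66). Fkbp3, a prolyl isomerase, was at 3.22, 4.55 and 6.29 and Cct2, a subunit of the cytosolic chaperonin, at 5.52 and 4.00 on arrays 2 and 3, while Hspb2, a small heat shock protein, was at -2.21 and -6.61 on arrays 1 and 3.

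Among energy genes, pyruvate dehydrogenase and the citric acid cycle had 21 of 27 above 0, with a median of 1.16 and medians of 0.61, 1.91 and 0.97 on arrays 1 to 3. Mpc1, a subunit of the mitochondrial pyruvate carrier, was at 3.80, 6.07 and 4.24. Pdk2, the kinase that inactivates pyruvate dehydrogenase, was at -3.39, -0.53 and -4.77. Mpc1 and Pdha1 lay on the opposite side to Pdk2 on each array. They were picked as the genes of smallest p in the list, and none passed the test.

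Complexes II to V had 14 of 23 above 0 (median 1.23), with Cox11, an assembly factor of cytochrome oxidase, at 3.63, 3.98 and 3.03 and Uqcrfs1, the Rieske protein of complex III, at 1.66, 2.71 and 5.01. Complex I had 12 of 21 above 0. Its medians were -1.41 on array 1, 1.497 on array 2 and 1.45 on array 3, so the arrays disagreed in side, and without array 3 the list lay 1.01 below all genes. Mitochondrial ribosome, import and carrier genes had 35 of 55 above 0 (median 0.87), among them Slc25a3, the phosphate carrier, at 3.45, 4.29 and 4.21. Glycolysis had 8 of 12 above 0 (median 0.69), with Pgk1, phosphoglycerate kinase, at 1.53, 2.71 and 3.08. Cytosolic ribosomal proteins were split, with 8 of 17 above 0 and medians of -1.47, 1.62 and 0.72.

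Cholesterol synthesis and export genes had 16 of 21 above 0 (median 1.26). Vldlr, a receptor of reelin and apolipoprotein E, was at 2.09, 2.86 and 5.86, and Insig2, which holds back sterol-dependent transcription, at 1.62, 2.19 and 4.94. Scap, the escort protein of the sterol-regulated transcription factors, was on the other side at -3.41, -1.74 and -3.01. Imprinted genes had 16 of 21 above 0 (median 1.498), with Snrpn, a spliceosomal protein gene, at 2.52, 3.85 and 2.36 and Grb10, an adaptor of insulin receptors, at 4.16 and 3.06 on arrays 2 and 3. Splicing factors and hnRNPs had 27 of 43 above 0 (median 0.97), with Hnrnpll at 2.15, 3.64 and 6.46.

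**Figure D2:**
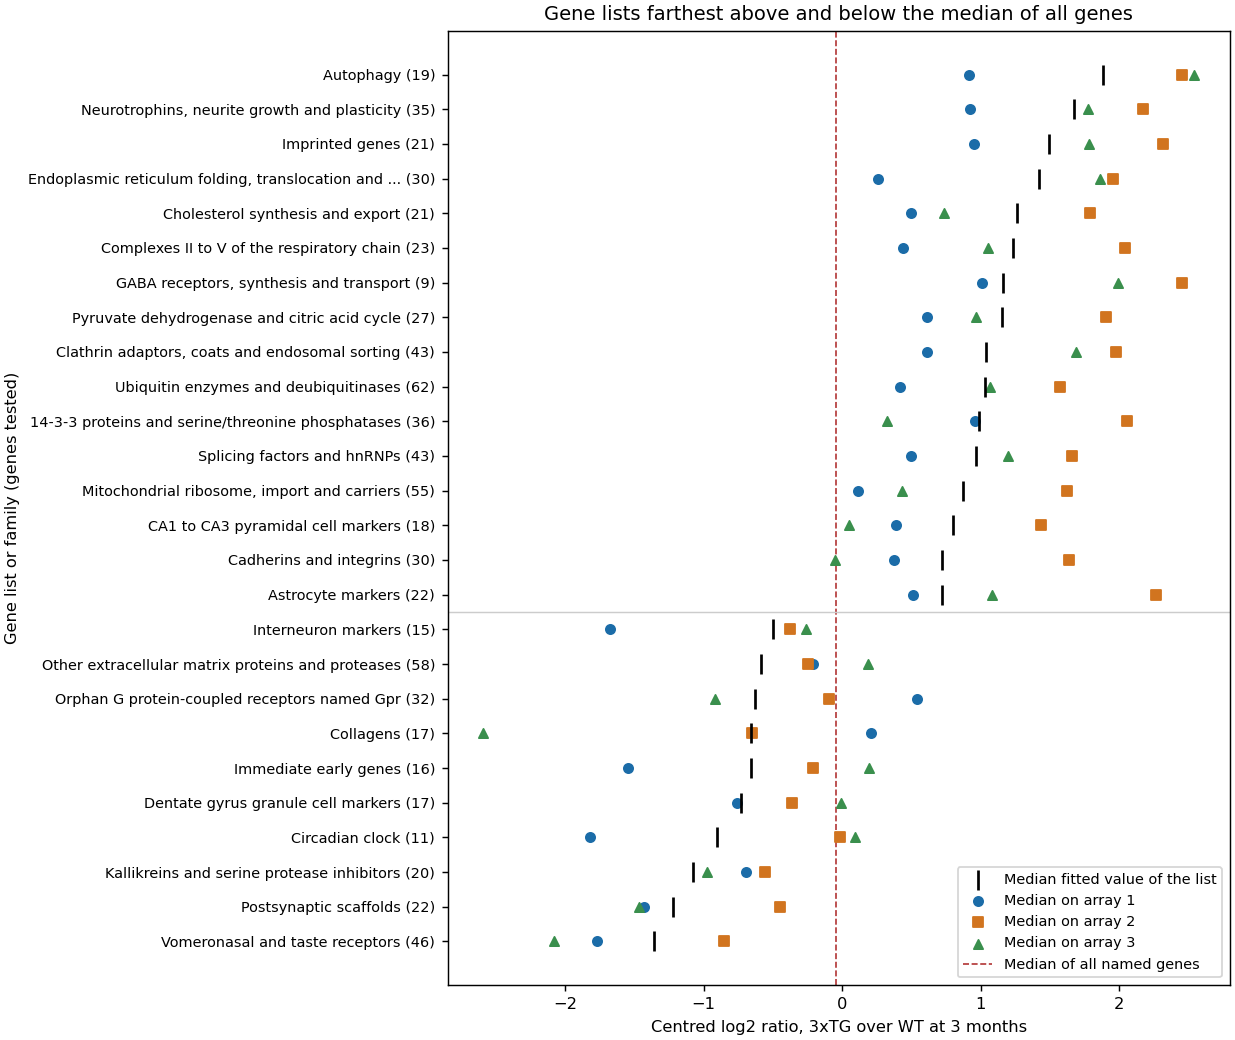
Median centred log2 ratio of 3xTG over WT at 3 months (x axis) for the 16 gene lists farthest above and the 10 farthest below the median of all named genes (y axis, number of genes tested in brackets). Ticks are the median of fitted values, points the median on each array and the dashed line the median of all named genes (-0.04). Autophagy is highest at 1.89 and vomeronasal and taste receptors lowest at -1.36. Array 1 is the lowest of the 3 arrays in most of the upper lists, an order of arrays that can depend on the centring.

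At the synapse, the sides differed between gene groups. Among postsynaptic scaffolds 14 of 22 lay below 0. Their median was -1.22, and the medians on arrays 1 to 3 were -1.43, -0.45 and -1.47. An unadjusted p under 0.05 was found for 2 genes, both below 0. Besides Nrgn, Baiap2, an actin-binding adaptor of spines, was at -3.99, -1.47 and -4.49, and Dlgap1, a partner of PSD-95, at -2.55, -1.47 and -2.62. Grip1, a scaffold that binds AMPA receptors, lay on the other side, at 2.53 and 2.67 on arrays 2 and 3. Camk2a and Camk2b, subunits of the calcium/calmodulin-dependent kinase of spines, were at -2.77, -1.94 and -4.02 and at -2.20, -1.05 and -4.29. All values of Baiap2, Dlgap1 and both kinase subunits were below the median. In 3xTG over WT at 12 months 8 of 12 scaffold genes lay above 0 (median 0.92, all genes 0.67). In WT at 12 over 3 months, which has the same WT mice of 3 months, 16 had a median of -0.75 (all genes -0.18). Baiap2 and Dlgap1 were at 1.85 and 1.30 in the former and at -4.41 and -4.02 in the latter, where Grip1 was at 0.87. The part of the shared WT mice in these values was not tested. The calcium and calmodulin list that holds both kinase subunits had 27 of 43 above 0 (median 0.46), with Atp2b1, a calcium pump of the plasma membrane, at 5.58, 3.94 and 2.04. Ionotropic and metabotropic glutamate receptors were split, 8 of 17 above 0, with Grm2 at 5.11 and 3.32 on arrays 1 and 3 and Grin2a, an NMDA receptor subunit, at -4.25, -0.65 and -2.86.

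GABA receptor and transport genes had 5 of 9 above 0 and a median of 1.16. Those above 0 include Gabarap, which is also in the autophagy list. Gabra5, the alpha-5 subunit of extrasynaptic GABA-A receptors in hippocampus, was at 1.32, 2.23 and 6.40, and Gabrb1 at 1.46, 3.11 and 4.77. Gabbr1, a subunit of the metabotropic GABA-B receptor, was below the median on each array, at -2.03, -1.46 and -1.66. Of the vesicle release machinery 26 of 41 were above 0 (median 0.47). The median of this list minus that of all genes changed side without array 3 or with only probes of 3 arrays. Syt1, the calcium sensor of release, was at 3.77, 4.16 and 3.25, while Syn1, which tethers vesicles, was at -2.65, -1.26 and -3.05. Potassium channels had 18 of 35 above 0 (median 0.05), and the 4 genes with an unadjusted p under 0.05 were all above 0. Among them Kcnma1, the large-conductance calcium-activated channel, was at 5.32, 6.15 and 2.22 and Kcnd2, an A-type channel, at 2.49, 3.06 and 5.67.

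In signalling, Pde1a, a calmodulin-dependent phosphodiesterase, was at 3.93, 4.41 and 2.47, and Pde8b, which degrades cyclic AMP, at 4.04 and 2.75 on arrays 1 and 3, in a cyclic AMP list with 16 of 32 above 0 (median -0.07). Tubulins and motors had 21 of 32 above 0 (median 0.59), with the kinesins Kif5b at 2.76 and 5.86 on arrays 1 and 3 and Kif21a at 4.20 and 4.96 on arrays 2 and 3. Zinc, copper and iron genes had 16 of 27 above 0 (median 0.39). The zinc transporters Slc39a10, an importer, at 3.61, 4.71 and 4.89 and Slc30a6, which loads zinc into the Golgi, at 2.96, 4.38 and 5.02 lay above, and Slc30a10, an exporter of manganese, at -4.29 and -4.42 on arrays 2 and 3 lay below.

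Immediate early genes, which respond to neuronal activity, had 10 of 16 below 0 with a median of -0.66. Nr4a1 was at 0.62 on array 1 and -7.36 on array 3, and Npas4 at -5.39, -1.88 and 0.88, so the arrays disagreed for both. Circadian clock genes had 7 of 11 below 0 (median -0.90), with medians of -1.82, -0.01 and 0.09 on arrays 1 to 3. Yet Arntl, the partner of Clock, was at 2.53, 5.02 and 2.24. Histones and chromatin regulators had 26 of 45 below 0 (median -0.29). General transcription genes were split, with 27 of 52 above 0, and their smallest p was that of Polr2a, the largest subunit of RNA polymerase II, at -4.395, -2.21 and -3.29.

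Cell type lists differed in side as well. Astrocyte markers had 16 of 22 above 0 (median 0.72), with Cpe, a peptide-processing carboxypeptidase, at 3.74 and 5.09 on arrays 1 and 2 and Cldn10 at 1.24, 2.87 and 4.41, while Ndrg2 was at -2.60, -2.01 and -2.93. Oligodendrocyte and myelin genes had 12 of 25 above 0 (median -0.19), and their side turned under 10 of 13 alternatives. Pmp22, a myelin membrane protein, was at 2.19, 2.46 and 5.40, and Mbp at 1.68 and 2.68 on arrays 1 and 3. Nkx2-2 of the same list was on the other side, at -3.04 and -1.59 on arrays 1 and 3. Interneuron markers had 11 of 15 below 0 (median -0.50), yet the smallest p was that of Nxph1, a ligand of neurexins, at 4.71 and 6.85 on arrays 2 and 3. The interneuron median minus that of all genes changed side when only probes of 3 arrays were used. Markers of CA1 to CA3 pyramidal cells had 10 of 18 above 0 and those of dentate granule cells 8 of 17, with medians of 0.80 and -0.73. Neither list kept its side under all alternatives.

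Immune and amyloid lists had medians on either side of 0. Microglia markers had 8 of 16 above 0 (median 0.13), with Cd68, a lysosomal protein of microglia, at 2.21, 2.45 and 1.90 and Trem2 at -3.36, -0.21 and -0.21. Genes of plaque-associated microglia had 8 of 14 above 0 (median 0.42). Antigen presentation had 12 of 17 below 0 (median -0.08), with B2m the only gene of that list with an unadjusted p under 0.05. Cytokines and their receptors had 32 of 56 below 0 (median -0.34), with medians of 0.02, 0.13 and -1.65 on arrays 1 to 3. Cxcl16, a chemokine, was at -4.22 and -8.19 on arrays 1 and 3. The microglia, antigen presentation and cytokine lists each changed side relative to all genes under some alternatives. Complement and coagulation had 9 of 16 above 0 (median 0.66), with C8b at 3.22, 3.60 and 4.16. Amyloid precursor processing genes had 14 of 24 above 0 (median 0.36), with Itm2b, an inhibitor of amyloid aggregation, at 1.75, 2.78 and 4.09 and Adam9, a metalloprotease, at 1.63, 2.33 and 4.54.

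The lowest median of the 83 lists was that of vomeronasal and taste receptors, at -1.36, with 39 of 46 below 0 and 5 genes with an unadjusted p under 0.05, all below 0. Vmn1r44 was at -6.09 and -4.85 on arrays 1 and 3 and Tas2r117 at -1.90, -2.80 and -4.92. Olfactory receptors, the largest family, had 180 of 290 below 0 (median -0.39). Kallikreins and serine protease inhibitors had 14 of 20 below 0 (median -1.08), and collagens 11 of 17 (median -0.66), with medians of 0.21, -0.65 and -2.59 on arrays 1 to 3. Defining families by name gave medians near all genes for solute carriers (88 of 169 above 0, median 0.05), Zfp zinc finger proteins (77 of 133, median 0.15) and Tmem proteins (54 of 101, median 0.20).

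Different probes of a gene agreed little. Of 835 genes with 2 probes tested, the probes lay on the same side for 454 (54.4%), where the shares above and below give 50%, and the fitted values had a Pearson's r of 0.13 across genes. The probes lay on the same side for Ppm1a (4.64 and 3.35), Srek1ip1 (5.40 and 4.22) and Gdap1 (5.0 and 3.35). Nectin1 had 3 probes, at -3.45, -2.86 and 0.43, so they did not all lie on the same side. They lay on opposite sides for Vps13b (3.68 and -3.42) and Rapgef5 (-3.60 and 2.69). Each value of a gene is therefore the value of the probe used, and probes of a gene may detect different transcripts, which was not tested.

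The arrays of 3xTG over WT at 12 months share no mouse with these arrays. Abundant transcripts lay above the chemosensory and keratin-associated families on them too, by 2.59, 2.53 and 1.52. The part this difference has in the values at 12 months was not tested. All 12 genes named above the median were listed on at least 2 arrays there and lay above 0, from 1.75 to 3.56, where 62.3% of the 4485 genes listed at both ages did. Of the 12 named below, 6 were listed on at least 2 arrays there and 5 of these lay below 0, from -2.46 to 0.08, where 37.7% of all genes did. A further 3 were listed on a single array at 12 months and all lay above 0, Pou3f1 at 4.15, Nrgn at 2.29 and Cers1 at 0.99, and 3 were not listed. Of the genes below the median at 3 months, values on either side were thus found at 12 months. Ppp2r1a was at 3.54, 3.55 and 3.46 on the 3 arrays at 12 months and Oxct1 at 3.57, 3.32 and 2.58. H2ax was at -0.51 ± 1.12 (SE) and Emc10 at -0.70 ± 1.12 (SE) at 12 months. The difference of the genotype effect between the ages was called by limma for 0 of 19640 probes (0%). An unadjusted p under 0.05 was found for 656 (3.34%), and the lowest adjusted p among the named genes was 0.975. The arrays of WT at 12 over 3 months use the same WT mice of 3 months, there as the reference, so their values are not separate from these. There all 8 genes named above with a value lay above 0, from 0.53 (Pdha1) to 4.36 (Eef1e1), where 45.2% of 4714 genes did. Of the 9 named below with a value, 6 lay below 0, where 54.8% of genes did. These 9 ran from -4.95 (Brd2) to 1.15 (Tmcc3).

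**Figure D3:**
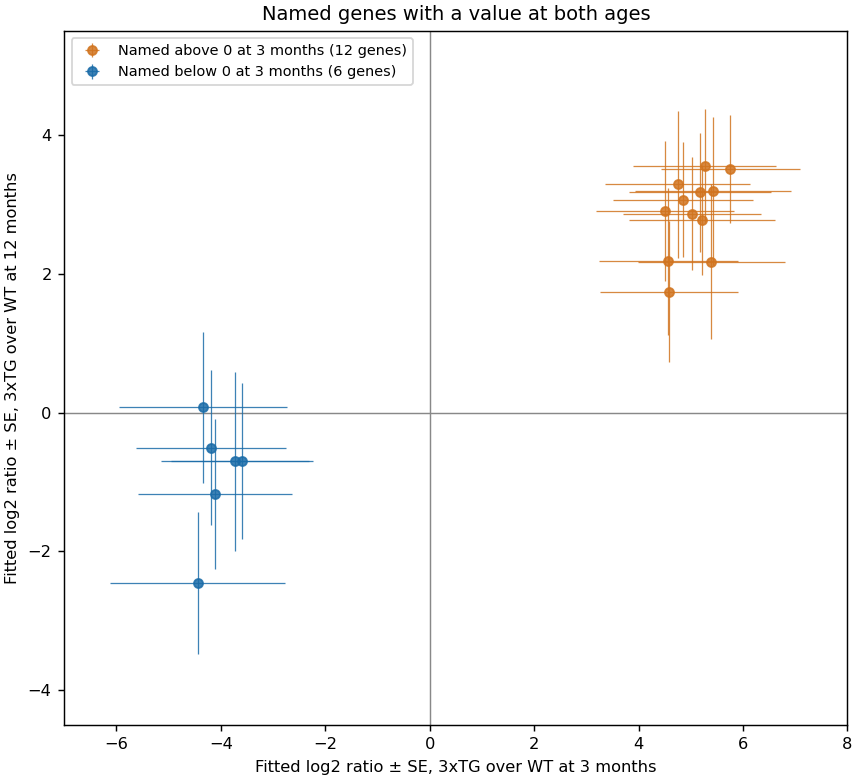
Fitted log2 ratio ± SE of 3xTG over WT at 3 months (x axis) and at 12 months (y axis) for the 18 named genes with a value at both ages. The 12 genes above 0 at 3 months lie between 1.75 and 3.56 at 12 months, and the 6 below 0 lie between -2.46 and 0.08.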

How the data were processed

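The deposited values are log2 ratios of the test over the reference channel. Scanner, background correction and normalization: not given in the sources used here. The log base was read from the range of these values. The median of the listed values was subtracted from each array. Probes listed on at least 2 of the 3 arrays entered a generalised least squares fit in limma 3.58.1 under R 4.3.3, with eBayes and Benjamini-Hochberg adjustment (threshold 0.05). The covariance of arrays that share a mouse took the variance between mice as 1.02 times that between arrays, estimated on 142 probes listed on all 9 arrays. The fit was tested on simulated data. No spot intensities were used, so signal over background is unknown.

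Symbols came from the platform annotation, updated through RefSeq GRCm38.p6 (13905 current, 2728 updated, 42 kept). Lists used 1 probe per gene: that listed on the most of the 3 arrays, then of all 9, then the first by probe ID. Genes named are the transgene-related genes, the 12 of smallest p per direction among probes listed on all 3 arrays with a single sign, up to 4 of smallest p per list (clone names left out), and 6 genes with several probes. Members and lists were chosen with earlier results of these data known. Alternatives changed the centring, scaling, covariance, dye term, filter and arrays. Tables were made in Python 3.11.15 with pandas 2.3.3. An allele in the strain name and a gene list are not reported here.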

Additional observations from a re-analysis of the deposited data

How the results depend on the processing

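limma called 0 probes under every alternative run, for genotype at 3 months and for the difference between ages. Numbers of probes at an unadjusted p under 0.05 moved. Above and below 0 they were 371 and 296, and 547 and 121 without centring, 170 and 772 centred on the abundant transcripts, 967 and 782 with arrays taken as independent, 771 and 606 with the variance ratio of gene means (0.115), 250 and 134 among the 3607 probes with 3 values, and 264 and 148 with unlisted values set to 0. They were 347 and 246 with the spread scaled, 390 and 378 of 10056 probes with a dye term, and 551 and 405 of 12068 in a fit of all 9 arrays. Leaving out each array gave 146 to 275 above and 41 to 484 below, with 6675 to 7020 probes tested. For the difference between ages the number was 656, and 841 without centring, 687 centred on the abundant transcripts, 1507 with arrays taken as independent and 400 to 760 leaving out each genotype array. With the exp number as a replicate block it was 841 of 16266 probes. Titles share only this number, so it does not pair the arrays. Of the 83 lists, 46 kept their side relative to all genes under all 13 alternatives (34 above and 12 below), and 37 changed it under at least 1. The cause of these changes was not tested. Signal over background is unknown, and 2 mice per genotype limit the precision.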
